A study of Arabidopsis thaliana with 12 samples.

Results

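VSP1 (AT5G24780), VSP2 (AT5G24770) and CORI3 (AT4G23600) are 3 leaf genes that jasmonate switches on, taken from the 32833 genes of an Arabidopsis thaliana RNA-seq table. They were picked by name, and VSP1 was picked because its levels in the triple mutants went opposite ways. The triple-mutant values of VSP1 therefore describe how it was chosen and are given without a test. VSP2 and CORI3 were chosen alongside it with the same libraries known, so they are treated in the same way.

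The study asked whether the nuclear envelope proteins PNET2_A and PNET2_B overlap in function with the CRWN proteins, which are coiled-coil components of the plant nuclear lamina. Leaves of 4 genotypes were sequenced, with 3 libraries each: crwn1;4 pnet2_b and crwn1;4 pnet2_a, which are crwn1;4 plants carrying a CRISPR change in PNET2_B or in PNET2_A, then crwn1;4, labelled as a knockout of CRWN1 and CRWN4, and WT. They are called the pnet2_b triple mutant, the pnet2_a triple mutant, the double mutant and WT here, and the double mutations are shared by the first 3. The labels state that no treatment was given, so levels are those of unchallenged leaves. Plants were 3 weeks old by the titles and 4 weeks old by the extraction protocol, and 50 mg of leaf went into each preparation. How many CRISPR lines stand behind each triple mutant is not given in the sources used here. It is also not stated that the replicates were separate plants, and p-values then reflect only the differences among these libraries, which could be technical.

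Jasmonates are lipid-derived hormones made after wounding and chewing by insects. Their active form is bound by the receptor COI1, which then directs the destruction of JAZ repressors and frees transcription factors such as MYC2. VSP1 and VSP2 encode vegetative storage proteins of the acid phosphatase family, and VSP2 is a widely used marker of the MYC branch of the response. CORI3, named for induction by the bacterial jasmonate mimic coronatine, encodes a cystine lyase of the tyrosine aminotransferase family. Salicylic acid, the hormone of defence against biotrophic pathogens, is known to restrain many jasmonate outputs.

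The 2 VSP genes are tandem neighbours, and their sequences are shown because they bear on how far their reads can be told apart. By the TAIR10.1 annotation of RefSeq, VSP2 lies at chr5:8500468-8502224 and VSP1 at chr5:8507590-8509201, both on the minus strand, with 5365 bases and no annotated protein-coding gene between them. CORI3 lies on the plus strand at chr4:12310379-12313212. The coding sequences of VSP1 (813 bases) and VSP2 (798 bases) were identical at 88.1% of aligned positions. Their first 150 coding bases, on the minus strand of chr5:8508740-8508889 for VSP1 and of chr5:8501695-8501844 for VSP2, are printed with capitals at bases that differ from or are missing in the other gene.
VSP1: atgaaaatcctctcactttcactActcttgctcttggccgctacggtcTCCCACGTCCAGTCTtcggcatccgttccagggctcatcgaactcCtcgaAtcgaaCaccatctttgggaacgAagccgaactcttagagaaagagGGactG
VSP2: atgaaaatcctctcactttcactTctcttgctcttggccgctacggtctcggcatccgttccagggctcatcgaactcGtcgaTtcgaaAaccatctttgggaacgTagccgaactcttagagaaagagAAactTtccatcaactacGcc
The longest run shared by both coding sequences was 54 bases, here read from the minus strand of chr5:8508594-8508647 within VSP1.
VSP1 and VSP2: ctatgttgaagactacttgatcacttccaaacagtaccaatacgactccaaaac
Of 1269 windows of 50 bases along the VSP1 transcript, 5 also occurred in VSP2, or 0.394%, and of 1244 windows of 75 bases there were 0. Neither the read length nor the handling of reads with several matches is given, so a small exchange of reads between both genes is uncertain. The CORI3 coding sequence of 1269 bases was 79.2% identical to that of its neighbour AT4G23590, with no shared window of 50 bases.

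The 250 bases upstream of each annotated start are shown because VSP1 and VSP2 were both lowest in the pnet2_a triple mutant. Capitals mark matches to the motifs searched on both strands.
VSP1, minus strand of chr5:8509202-8509451: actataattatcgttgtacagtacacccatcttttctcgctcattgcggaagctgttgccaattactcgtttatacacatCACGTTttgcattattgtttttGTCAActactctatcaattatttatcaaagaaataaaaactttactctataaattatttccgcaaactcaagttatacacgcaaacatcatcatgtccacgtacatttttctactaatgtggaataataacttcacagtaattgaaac
VSP2, minus strand of chr5:8502225-8502474: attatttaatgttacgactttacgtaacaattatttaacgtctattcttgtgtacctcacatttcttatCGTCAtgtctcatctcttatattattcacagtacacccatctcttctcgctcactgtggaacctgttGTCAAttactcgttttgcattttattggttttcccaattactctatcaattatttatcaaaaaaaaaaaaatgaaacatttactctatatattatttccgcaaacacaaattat
CORI3, plus strand of chr4:12310129-12310378: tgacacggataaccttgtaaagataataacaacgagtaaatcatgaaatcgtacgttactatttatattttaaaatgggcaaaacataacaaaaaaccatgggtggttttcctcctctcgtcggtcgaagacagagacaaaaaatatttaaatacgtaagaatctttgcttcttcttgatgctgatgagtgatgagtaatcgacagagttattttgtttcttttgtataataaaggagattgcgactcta
A local alignment of the VSP1 and VSP2 windows covered 169 columns at 77.5% identity, and so the likeness of the pair extended upstream of the transcript. VSP1 held 1 T/G-box (AACGTG), a motif known from MYC2 binding, starting at -170 from the start, and such a match was found in 7.54% of 27443 promoters. The W-box core of WRKY factors (TTGAC) was found at -148 in VSP1 and at -114 in VSP2, and in 44.9% of promoters. The alignment paired -233 to -73 of VSP1 with -154 to -1 of VSP2, so both W-box matches lay at different aligned places. VSP2 held 1 core of TGA factors (TGACG), at -181, found in 18.6% of promoters. CORI3 held none of these within 250 bases. A G-box (CACGTG) was in none of the 3 windows and in 6.49% of promoters, and the GCC-box (GCCGCC) was likewise in none and in 1.87% of promoters. The lack in CORI3 held only for the short window. Within 1000 bases CORI3 had 4 W-box and 3 TGA cores, VSP1 had 3 and 0, and VSP2 had 5 and 5. Over that length 88.1% of promoters held a W-box core and 54.1% a TGA core.

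Levels are given in FPKM, which scales the fragments sequenced from a gene to its length and to the size of the library. Comparisons of FPKM between genes and between libraries are approximate, and those between libraries depend on the scaling, as given below. VSP1 stood at 49.2, 13.1 and 27.0 FPKM in the pnet2_b triple mutant, at 2.46, 2.04 and 3.94 FPKM in the pnet2_a triple mutant, at 10.3, 23.8 and 19.0 FPKM in the double mutant and at 15.2, 16.6 and 19.0 FPKM in WT. The 3 pnet2_a libraries were the lowest of all 12, and the highest of them was below the lowest double mutant library. The pnet2_b libraries overlapped both the double mutant and WT, since the second of them was below every WT library and the others above. As leaf is a mixture of cells, fewer cells of a type and less RNA per cell cannot be told apart here. The means of VSP1 were 29.8 ± 18.2 FPKM in the pnet2_b triple mutant, 2.81 ± 0.999 FPKM in the pnet2_a triple mutant, 17.7 ± 6.84 FPKM in the double mutant and 17.0 ± 1.93 FPKM in WT (SD, n = 3 each). By mean the order was pnet2_b, double mutant, WT, pnet2_a. The pnet2_a libraries did not overlap those of any other genotype, while the ranges of the other 3 genotypes overlapped one another.

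VSP2 followed the same order of extremes. It stood at 61.9, 14.2 and 32.8 FPKM in the pnet2_b triple mutant, at 5.53, 6.42 and 7.45 FPKM in the pnet2_a triple mutant, at 10.8, 29.0 and 16.9 FPKM in the double mutant and at 33.0, 11.8 and 17.9 FPKM in WT. Again all pnet2_a libraries lay below every other library, while the other 3 genotypes overlapped one another. How many of all genes kept for testing had this order was not counted, so nothing is read from it for either VSP gene. Its means were 36.3 ± 24.0 FPKM in the pnet2_b triple mutant, 6.46 ± 0.962 FPKM in the pnet2_a triple mutant, 18.9 ± 9.25 FPKM in the double mutant and 20.9 ± 10.9 FPKM in WT (SD, n = 3 each). The places of the double mutant and WT in the order by mean were exchanged relative to VSP1, by much less than the SD of either.

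CORI3 did not share this pattern. Its level was 50.4, 27.6 and 40.1 FPKM in the pnet2_b triple mutant, 42.0, 50.7 and 47.4 FPKM in the pnet2_a triple mutant, 51.0, 59.4 and 39.5 FPKM in the double mutant and 45.5, 37.3 and 45.4 FPKM in WT. Every pair of genotypes overlapped, and the highest of the 12 libraries exceeded the lowest by 2.15-fold, against 24.1-fold for VSP1 and 11.2-fold for VSP2. CORI3 was the most abundant of the 3 genes in WT, with 37.3 to 45.5 FPKM against 11.8 to 33.0 FPKM for VSP2 and 15.2 to 19.0 FPKM for VSP1. In the first pnet2_b library VSP2 was above CORI3 and VSP1 was just below it.

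**Figure D1:**
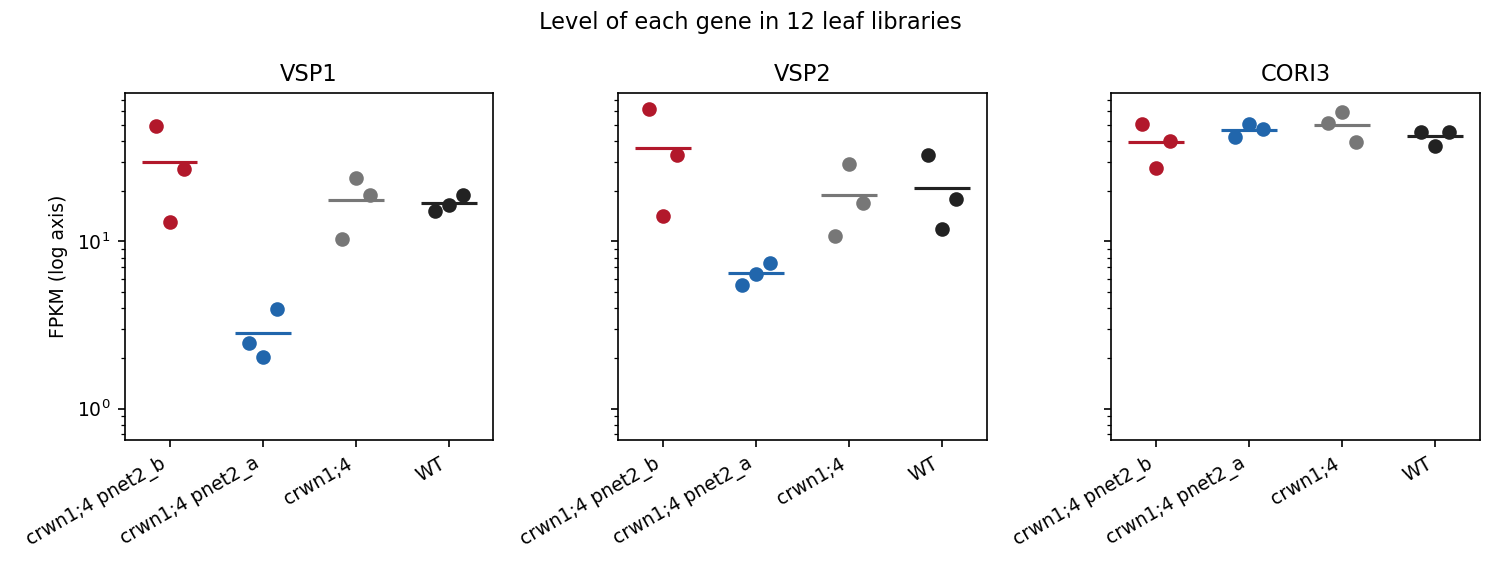
FPKM on a log axis for VSP1, VSP2 and CORI3, with 1 point per library and a bar at the mean of the 3 libraries of each genotype. All 3 pnet2_a points of VSP1 (2.04 to 3.94 FPKM) and VSP2 (5.53 to 7.45 FPKM) lie below every other library, and the CORI3 points of all genotypes overlap.

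Between the triple mutants the VSP genes lay furthest apart. Mean VSP1 was 10.6-fold and mean VSP2 5.61-fold as high in the pnet2_b as in the pnet2_a triple mutant, with no overlap between libraries. On the scale of log2(FPKM + 1), which shrinks changes of low genes, the differences were 2.86 ± 0.364 for VSP1 and 2.10 ± 0.445 for VSP2 (SE), and -0.28 ± 0.180 for CORI3, whose libraries overlapped. Libraries of the pnet2_b triple mutant were all above those of the pnet2_a triple mutant for 26.1% of the 19110 genes kept for testing, those with at least 1 FPKM in at least 3 libraries. These values describe the choice of genes, so nothing is read from that share.

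Against the double mutant, the larger distance was on the pnet2_a side. Mean VSP1 in the pnet2_a triple mutant was 0.159 times and mean VSP2 0.342 times that of the double mutant, and the log2 changes were -2.25 ± 0.364 and -1.32 ± 0.445 (SE). CORI3 differed by -0.08 ± 0.180. All pnet2_a libraries were below all double mutant libraries for 14.1% of genes kept. In the pnet2_b triple mutant, mean VSP1 was 1.68 times and mean VSP2 1.92 times that of the double mutant, the log2 changes being 0.605 ± 0.364 and 0.78 ± 0.445 (SE). CORI3 changed by -0.36 ± 0.180. The pnet2_b libraries overlapped the double mutant for all 3 genes, while 46.4% of genes kept had every pnet2_b library above every double mutant library. Much of the pnet2_b difference came from the first library, since without it the log2 change was 0.16 for VSP1 and 0.29 for VSP2. Without the second pnet2_b library the changes were 1.08 and 1.31. Leaving out the first double mutant library gave 0.28 for VSP1 and 0.46 for VSP2. The same 3 double mutant libraries served both comparisons.

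**Figure D2:**
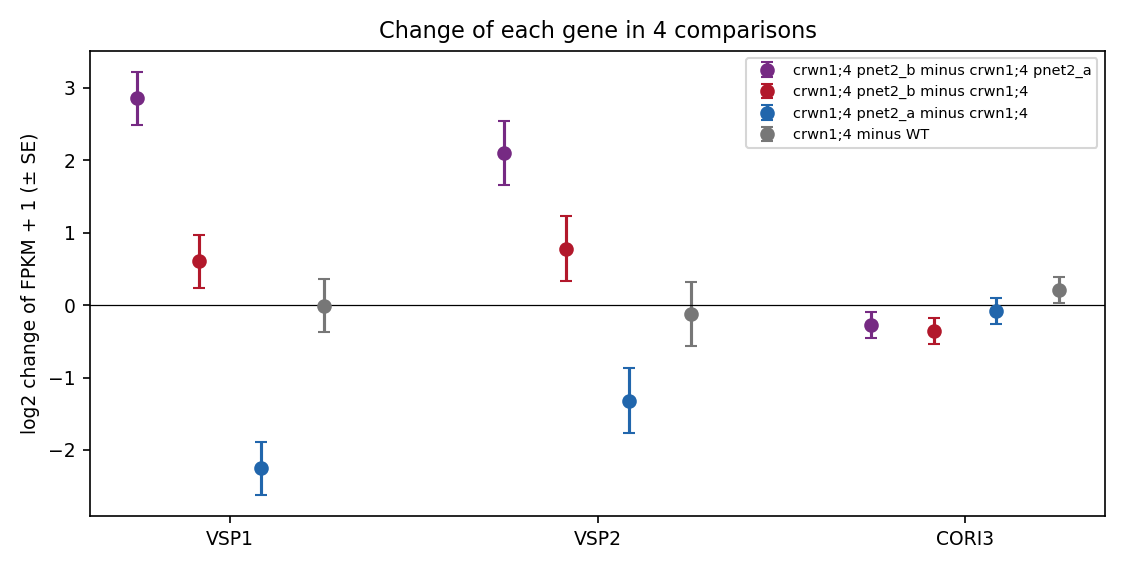
Change of log2(FPKM + 1) with its SE for VSP1, VSP2 and CORI3 in 4 comparisons, from 1 limma fit over 12 libraries. VSP1 and VSP2 lie below 0 for pnet2_a minus double mutant (-2.25 and -1.32) and above 0 for pnet2_b minus double mutant (0.605 and 0.78), and their changes between double mutant and WT are near 0.

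The contrast of double mutant and WT used libraries of the double mutant that the choice of VSP1 also drew on, but not the contrast itself, and it was tested with limma and Benjamini-Hochberg adjustment over all genes kept. VSP1 changed by -0.01 ± 0.364 (SE, adjusted p = 0.998), VSP2 by -0.13 ± 0.445 (adjusted p = 0.923) and CORI3 by 0.21 ± 0.180 (adjusted p = 0.592) on the log2 scale. None of the 3 passed the threshold of 0.05, nor an unadjusted p of 0.05. In the same comparison 2.41% of genes kept rose and 0.591% fell. With SEs of this size a change of the VSP genes by the margin seen in the pnet2_b triple mutant was not detectable.

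VSP1 and VSP2 were among the most variable genes within a genotype. The residual SD over 12 libraries on the log2 scale was 0.58 for VSP1, 0.71 for VSP2 and 0.28 for CORI3, against a median of 0.15 over the genes kept. Among genes of like mean level, within 0.5 log2 units, 99.7% had a smaller SD than VSP1, 99.8% a smaller one than VSP2 and 98.4% a smaller one than CORI3. The highest library exceeded the lowest by 3.76-fold for VSP1 and 4.35-fold for VSP2 in the pnet2_b triple mutant, by 1.93-fold and 1.35-fold in the pnet2_a triple mutant, by 2.31-fold and 2.68-fold in the double mutant, and by 1.25-fold and 2.79-fold in WT.

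Both genes deviated in the same direction in the 3 pnet2_b libraries and in 2 of 3 double mutant libraries. In the pnet2_b triple mutant the first library stood 0.89 above its genotype mean for VSP1 and 0.98 above it for VSP2, and the second stood at -0.94 and -1.06 (log2). In the double mutant the first library stood at -0.65 for both genes and the second at 0.48 for VSP1 and 0.70 for VSP2, while the third was at 0.17 for VSP1 and -0.05 for VSP2. The pnet2_a libraries deviated less, between -0.29 and 0.41 for VSP1 and between -0.19 and 0.19 for VSP2, with the second at -0.29 for VSP1 and close to 0 for VSP2. In WT the first library was at -0.14 for VSP1 and 0.75 for VSP2 and the second at -0.02 and -0.66. CORI3 deviated in the direction of both VSP genes in the 3 pnet2_b libraries, by 0.39, -0.46 and 0.07. It did so in the second double mutant library too, at 0.26, but was at 0.05 in the first and -0.31 in the third. The order of libraries within a genotype is a description of 3 samples each, and what sets it was not tested.

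**Figure D3:**
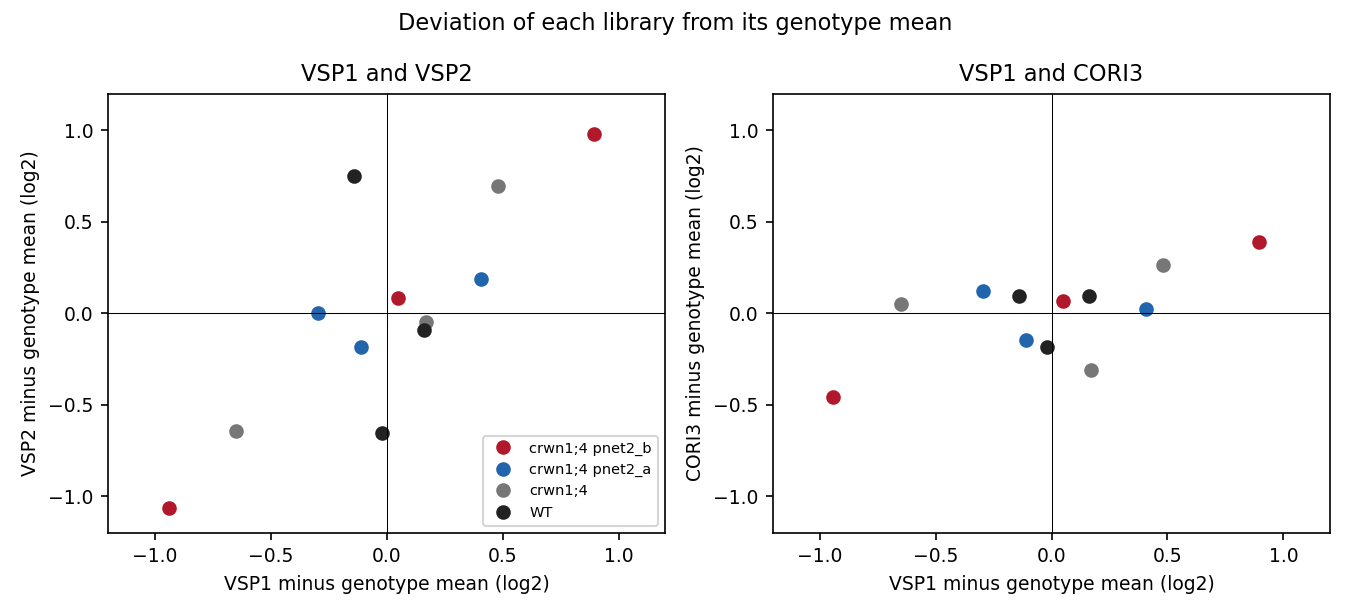
Deviation of log2(FPKM + 1) of each of 12 libraries from its genotype mean, VSP1 on the horizontal axis and VSP2 (left) or CORI3 (right) on the vertical axis. The pnet2_b libraries span -0.94 to 0.89 for VSP1 and -1.06 to 0.98 for VSP2. The WT libraries span -0.66 to 0.75 for VSP2 but -0.14 to 0.16 for VSP1.

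The balance of both VSP genes was also unequal across genotypes. The ratio of VSP1 to VSP2 was 0.846 ± 0.0654 in the pnet2_b triple mutant, 0.431 ± 0.106 in the pnet2_a triple mutant, 0.966 ± 0.151 in the double mutant and 0.975 ± 0.477 in WT (SD, n = 3 each). The pnet2_a ratios, 0.318 to 0.529, did not overlap those of the pnet2_b triple mutant, 0.796 to 0.920, or of the double mutant, 0.822 to 1.12. They did overlap WT, where 1 library was at 0.461. In the pnet2_a triple mutant VSP1 was thus lower by more than VSP2, and as the ratio contains the level used to choose VSP1, it is given without a test.

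Facts of the whole series touch these values as follows. FPKM of the CRWN1 gene averaged 1.87 ± 0.130 in the double mutant and 12.4 ± 0.949 in WT, and FPKM of the CRWN4 gene averaged 1.26 ± 0.0341 in the double mutant and 7.36 ± 0.967 in WT (SD, n = 3 each), and both fell (limma adjusted p = 1.2e-07 and 1.13e-05). Against the double mutant, 22.9% of genes kept rose and 9.2% fell in the pnet2_a triple mutant, and 38.8% rose and 8.63% fell in the pnet2_b triple mutant. Between pnet2_b and pnet2_a, 2.12% rose and 0.754% fell. The split depends on scaling, because the median gene moved by 0.11 in pnet2_a and by 0.23 in pnet2_b plants relative to the double mutant, and by 0.12 between them (log2). Rises made up 71.3% of the calls for pnet2_a against the double mutant as deposited, 51.8% with median-ratio scaling and 46.3% with quantile normalization. They made up 81.8%, 50.5% and 46.1% of the calls for pnet2_b against the double mutant, and 73.8%, 25.4% and 42.6% of those for pnet2_b against pnet2_a, under the same 3 scalings. VSP1 and VSP2 kept their directions in those 3 comparisons under each scaling tried, and so did CORI3.

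The other MYC-branch outputs are the genes most like VSP1, VSP2 and CORI3 by role, and 15 of 16 on the list were kept. In the pnet2_b triple mutant 14 of 15 rose and none fell against the double mutant (median log2 change 0.90, against 0.23 over all genes), and 10 rose with median-ratio scaling. In the pnet2_a triple mutant 7 rose and 2 fell (median 0.39, against 0.11). Between the triple mutants 5 rose and none fell (median 0.37, against 0.12), under each of 3 other scalings as well. Over all genes kept, 38.8% rose in pnet2_b, 22.9% rose and 9.2% fell in pnet2_a, and 2.12% rose between them. In the double mutant 1 rose against WT, TAT3, a tyrosine aminotransferase, a call lost in a fit on those 2 genotypes alone (adjusted p = 0.0651). The counts moved little with any 1 library left out, to 6 or 7 rising and 1 or 2 falling in the pnet2_a triple mutant and to 4 to 6 rising between the triple mutants.

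Within that list, 2 behaviours stood side by side. TAT3, in the same enzyme family as CORI3, reached 55.4, 41.6 and 62.8 FPKM in the pnet2_b triple mutant and 40.9, 39.4 and 43.9 FPKM in the pnet2_a triple mutant, against 5.59, 3.02 and 6.14 FPKM in the double mutant. It rose by 3.22 ± 0.191 in pnet2_b (log2, SE, limma adjusted p = 4.01e-08) and by 2.88 ± 0.191 in pnet2_a (adjusted p = 2.31e-07). KTI1, a trypsin inhibitor, NATA1, an ornithine acetyltransferase, and the transcription factor NAC055 also rose in both. NAC055 was listed at 0 in all 3 double mutant libraries.

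The 5 genes that rose between pnet2_b and pnet2_a were JR1, BGLU18, TSA1, MBP1 and MBP2, named here after their values were seen apart from MBP2. They are a jacalin-like lectin, a beta-glucosidase and a structural protein of endoplasmic reticulum bodies, and a pair of myrosinase-binding proteins. By locus number, MBP2 (AT1G52030) lies beside MBP1 (AT1G52040), and BGLU18 (AT1G52400) beside TSA1 (AT1G52410), all on chromosome 1. The 5 calls are therefore not from 5 separate places in the genome. BGLU18 stood at 240, 166 and 192 FPKM in the pnet2_b triple mutant, at 97.3, 89.0 and 126 FPKM in the pnet2_a triple mutant and at 93.2, 135 and 120 FPKM in the double mutant. JR1 was at 62.6, 49.0 and 57.8 FPKM in the pnet2_b triple mutant, at 28.1, 32.4 and 37.4 FPKM in the pnet2_a triple mutant and at 37.9, 49.8 and 37.9 FPKM in the double mutant. Their log2 differences between pnet2_b and pnet2_a ran from 0.78 for JR1 to 1.67 for MBP2, smaller than the 2.86 of VSP1 and the 2.10 of VSP2. JR1 and MBP2 also fell in the pnet2_a triple mutant against the double mutant, by 0.35 and 0.999 on the log2 scale, though the call of JR1 was lost without any 1 of 4 libraries (the second double mutant, the first or second pnet2_a, or the third pnet2_b library; adjusted p up to 0.179). MBP2 was also picked for its likeness to VSP1, so its calls are no independent evidence. The call of MBP1 between the triple mutants was lost without the second pnet2_a library (adjusted p = 0.0549).

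**Figure D4:**
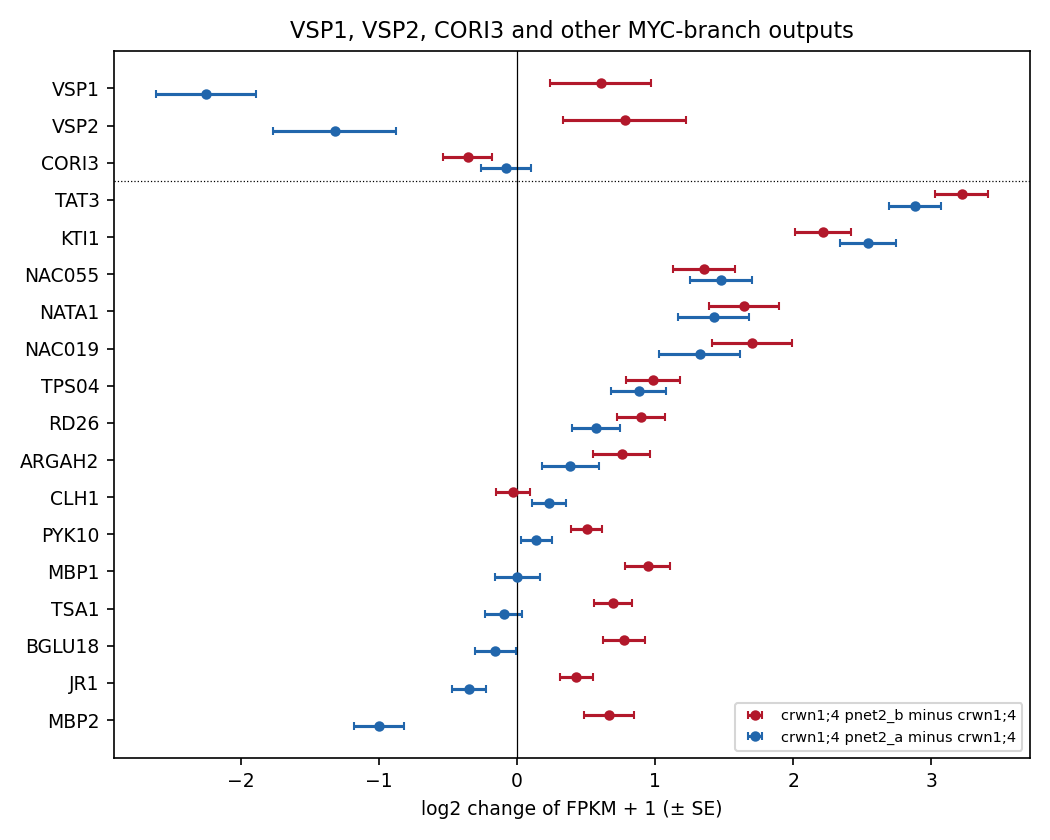
Change of log2(FPKM + 1) with its SE against the double mutant, in the pnet2_b (red) and pnet2_a (blue) triple mutants, for VSP1, VSP2 and CORI3 above the dotted line and 15 other MYC-branch outputs below it, ordered by the pnet2_a change. VSP1 and VSP2 have the lowest pnet2_a values shown (-2.25 and -1.32), followed by MBP2 at -0.999, and both comparisons share the double mutant libraries.

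Many genes upstream of the VSP genes in the pathway rose in both triple mutants. The VSP genes themselves were low in pnet2_a, while in pnet2_b their means were above the double mutant with overlapping libraries. Of 15 jasmonate synthesis genes kept, 10 rose and 1 fell in the pnet2_b triple mutant and 9 rose and 1 fell in the pnet2_a triple mutant, against the double mutant (median log2 change 0.46 in pnet2_b and 0.53 in pnet2_a, against 0.23 and 0.11 over all genes). The shares of all genes kept, for these and the breakdown genes below, were 38.8% rising and 8.63% falling in pnet2_b and 22.9% and 9.2% in pnet2_a. In the double mutant AOC3 and OPCL1 rose against WT, and either call was lost without at least 1 library and in a fit on those 2 genotypes alone. Under median-ratio scaling 6 synthesis genes rose and 1 fell in the pnet2_b triple mutant, and under quantile normalization 8 rose and 2 fell. LOX2, the chloroplast lipoxygenase of the wound response, was at 308, 216 and 269 FPKM in the pnet2_b triple mutant and 274, 281 and 304 FPKM in the pnet2_a triple mutant, against 167, 187 and 159 FPKM in the double mutant. It lay in the same range in both triple mutants, unlike VSP1. AOC3, an allene oxide cyclase, rose by 1.66 ± 0.143 in pnet2_b and by 1.29 ± 0.143 in pnet2_a (log2, SE). Of 6 genes that break down or store jasmonates, 5 rose and none fell in the pnet2_b triple mutant and 5 rose and 1 fell in the pnet2_a triple mutant, among them IAR3, a hydrolase of jasmonate conjugates. Between the triple mutants ACX1 rose and AOS and AOC2 fell among the synthesis genes, and each of these calls was lost without at least 1 library.

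Of 10 genes for perception and MYC factors, 7 rose in the pnet2_b and 6 in the pnet2_a triple mutant with none falling, where 38.8% and 22.9% of genes kept rose (median log2 change 0.39 in pnet2_b and 0.28 in pnet2_a, against 0.23 and 0.11 over all genes). However, under median-ratio scaling 3 rose and 1 fell in the pnet2_b and 4 rose and 1 fell in the pnet2_a triple mutant. MYC2 itself averaged 15.7 ± 0.533 FPKM in the pnet2_b triple mutant, 13.7 ± 1.43 FPKM in the pnet2_a triple mutant and 9.30 ± 1.58 FPKM in the double mutant (SD, n = 3 each), and rose in both. Of 10 JAZ repressors, 6 rose and 1 fell in the pnet2_b triple mutant and 2 rose and 1 fell in the pnet2_a triple mutant (median log2 change 0.62 in pnet2_b and 0.27 in pnet2_a). The 2 of 10 that rose in the pnet2_a triple mutant are close to the 22.9% of genes kept that rose there. The single genes that fell in these lists were AOS in pnet2_b and JMT in pnet2_a for synthesis, ILL6 in pnet2_a for breakdown and JAZ3 in both, and each lost its call without at least 1 library. JAZ1, itself a target of MYC2, rose by 1.22 ± 0.178 in pnet2_b and by 0.96 ± 0.178 in pnet2_a (log2, SE). None of the perception genes and 1 JAZ gene, JAZ9, was called between the triple mutants, where 2.12% of genes kept rose and 0.754% fell. The JAZ9 call was lost without any 1 library of either triple mutant (limma adjusted p up to 0.154).

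The ERF branch, which acts with ethylene and is known to oppose the MYC branch, was measured by 8 outputs. Of 7 outputs kept, 1 rose and 1 fell in the pnet2_b triple mutant and 1 rose in the pnet2_a triple mutant, where over all genes kept 38.8% rose and 8.63% fell in pnet2_b and 22.9% rose and 9.2% fell in pnet2_a. PDF1.2B, a plant defensin, was the gene that fell, at 2.57, 2.05 and 1.95 FPKM in the pnet2_b triple mutant, against 6.62, 3.21 and 3.81 FPKM in the double mutant (limma adjusted p = 0.0477), and its call was lost without any 1 of 9 libraries (adjusted p up to 0.208). HEL, a hevein-like protein, was the gene that rose in both, though in pnet2_b no gene of the list rose under median-ratio scaling. HEL was at 112, 77.9 and 92.2 FPKM in the pnet2_b triple mutant and 130, 136 and 135 FPKM in the pnet2_a triple mutant, against 59.8, 55.0 and 69.9 FPKM in the double mutant. It was thus higher in the pnet2_a than in the pnet2_b triple mutant, the reverse of VSP1. The fall of HEL in pnet2_b against pnet2_a (log2 -0.51 ± 0.129, SE, limma adjusted p = 0.0486) was lost with any 1 of 7 libraries left out.

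Salicylic acid synthesis, its signalling and marker PR1, and its crosstalk with jasmonate were measured by 11 genes. Against the double mutant 11 rose in the pnet2_b and 10 in the pnet2_a triple mutant, and 9 in each under median-ratio scaling. Their median log2 change was 2.08 in pnet2_b and 1.76 in pnet2_a, against 0.23 and 0.11 over all genes. Of all genes kept 38.8% rose in pnet2_b and 22.9% in pnet2_a. WRKY70, a factor that represses jasmonate outputs, stood at 132, 149 and 155 FPKM in the pnet2_b triple mutant and 110, 119 and 119 FPKM in the pnet2_a triple mutant, against 26.1, 33.6 and 43.0 FPKM in the double mutant. It rose in both. VSP1 and VSP2 were low in the pnet2_a triple mutant and not in the pnet2_b triple mutant. Whether WRKY70 or salicylic acid had a part in the VSP levels was not tested. ICS1, the salicylic acid synthesis enzyme, was the gene of this list called between the triple mutants, at 30.2, 27.8 and 35.7 FPKM in pnet2_b and 18.2, 16.9 and 18.9 FPKM in pnet2_a. Its call was lost without any 1 of 5 libraries, adjusted p up to 0.112. In the double mutant PR1, the marker of salicylic acid responses, rose against WT, at 39.5, 24.3 and 70.3 FPKM in the double mutant and 7.80, 1.02 and 1.17 FPKM in WT, a comparison in which VSP1, VSP2 and CORI3 were not called. The PR1 call was lost in a fit on those 2 genotypes alone (adjusted p = 0.0754).

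No gene on the lists of relatives, and no neighbour on the chromosome, was called between the triple mutants. Over all genes kept 2.12% rose and 0.754% fell there, so few or no calls in lists this short are near that share. Of 7 other acid phosphatases of the VSP type, none rose in either triple mutant against the double mutant. In each triple mutant 2 fell, AT5G44020 and AT1G04040, where 8.63% of genes kept fell in pnet2_b and 9.2% in pnet2_a. AT5G44020 was at 171, 154 and 151 FPKM in the pnet2_b triple mutant and 155, 162 and 164 FPKM in the pnet2_a triple mutant, against 263, 245 and 238 FPKM in the double mutant. Both triple mutants were lower by similar amounts, in contrast to VSP1. Under median-ratio scaling 4 of the 7 fell in the pnet2_b and 3 in the pnet2_a triple mutant and 1 fell between them, and under quantile normalization 4 fell in each triple mutant. Of 4 relatives of CORI3 kept, TAT3 and SUR1, an enzyme of glucosinolate synthesis, rose in both triple mutants against the double mutant. TAT7 rose in the pnet2_b triple mutant, a call lost without any 1 of 4 libraries (limma adjusted p up to 0.155). Over all genes kept 38.8% rose in pnet2_b and 22.9% in pnet2_a.

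On chromosome 5, the 3 genes on the lower side of the VSP pair (AT5G24740, AT5G24750 and AT5G24760) were not called in any of the 4 comparisons. On the other side AT5G24790 was listed at 0 in all 12 libraries, the transcription factor gene BZIP9 rose in the pnet2_b triple mutant and AT5G24810 rose in both against the double mutant. AT5G24810 was at 22.7, 24.1 and 23.8 FPKM in pnet2_b and 20.1, 20.0 and 19.7 FPKM in pnet2_a, against 9.76, 11.2 and 12.9 FPKM in the double mutant. Beside CORI3, AT4G07150, AT4G07160 and AT4G23590 were listed at 0 in all 12 libraries. AT4G23610, on its other side, rose in the double mutant against WT and in both triple mutants against the double mutant. It stood at 14.4, 11.97 and 13.0 FPKM in pnet2_b and 8.36, 11.2 and 11.7 FPKM in pnet2_a, against 1.42, 1.44 and 2.72 FPKM in the double mutant, which in turn was above 0.365, 0.376 and 0.509 FPKM in WT. The noncoding gene AT4G07165 overlaps it and rose likewise, though its call in the double mutant was lost without the first or the third WT library (adjusted p up to 0.0533). Because the strand setting of the counting is unknown here, reads of the pair cannot be told apart. The third gene on that side, AT4G23620, whose annotated span also overlaps AT4G23610, rose in the pnet2_b triple mutant, at 13.8, 16.4 and 12.5 FPKM, against 7.71, 8.43 and 9.16 FPKM in the double mutant. The calls of AT4G23610 and AT4G07165 in the double mutant were lost in a fit on that genotype and WT alone (adjusted p = 0.103 and 0.168). CORI3, whose annotated end lies next to them, was not called in the double mutant.

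The genes with the profile most like VSP1 were found among 13583 genes whose highest genotype mean was at least 5 FPKM, by the root mean square difference of log2(FPKM + 1) over 12 libraries, each gene centred on its own mean. With VSP2 and CORI3 counted in, making 13585, VSP2 was nearest to VSP1 with a difference of 0.51, and CORI3 took rank 8607 with 1.22. For scale, the profile of VSP1 itself varied by 1.19 around its mean. Next came AT2G09785 (0.56), MBP2 (0.65), the TRAF-like genes AT2G32870 (0.73) and AT3G28220 (0.75) and PGL5 (0.79). The nearest to VSP2 were MBP2 (0.55), AT3G28220 (0.55), AT1G14250 (0.56), the beta-amylase BAM5 (0.60) and the jacalin lectin JAL23 (0.61). They were picked for likeness, so their levels are given without a test.

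AT2G09785 stood at 223, 215 and 200 FPKM in the pnet2_b triple mutant, 26.8, 26.5 and 23.9 FPKM in the pnet2_a triple mutant, 134, 122 and 91.6 FPKM in the double mutant and 182, 155 and 120 FPKM in WT. It shared the low pnet2_a level of VSP1 but not its spread among pnet2_b libraries. It is annotated as a transcript antisense to the end of the ubiquitin gene UBQ6, which was at 324, 342 and 325 FPKM in pnet2_b, 326, 318 and 336 FPKM in pnet2_a, 261, 283 and 261 FPKM in the double mutant and 284, 249 and 331 FPKM in WT, and reads of that overlap cannot be told apart without the strand setting. MBP2 was at 12.4, 9.26 and 12.2 FPKM in pnet2_b, 2.68, 2.41 and 3.51 FPKM in pnet2_a, 4.89, 9.03 and 6.65 FPKM in the double mutant and 5.18, 6.49 and 6.08 FPKM in WT. AT3G28220 had the same order of pnet2_b libraries as VSP1, at 28.9, 7.98 and 14.3 FPKM, and BAM5 did as well, at 15.6, 5.22 and 9.66 FPKM. CORI3 had other nearest genes, AT4G10000 and AT5G45170 first, with differences of 0.18 each. The CORI3 profile itself varied by only 0.265 around its mean, so these small differences do not mean a closer likeness than for VSP1.

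**Figure D5:**
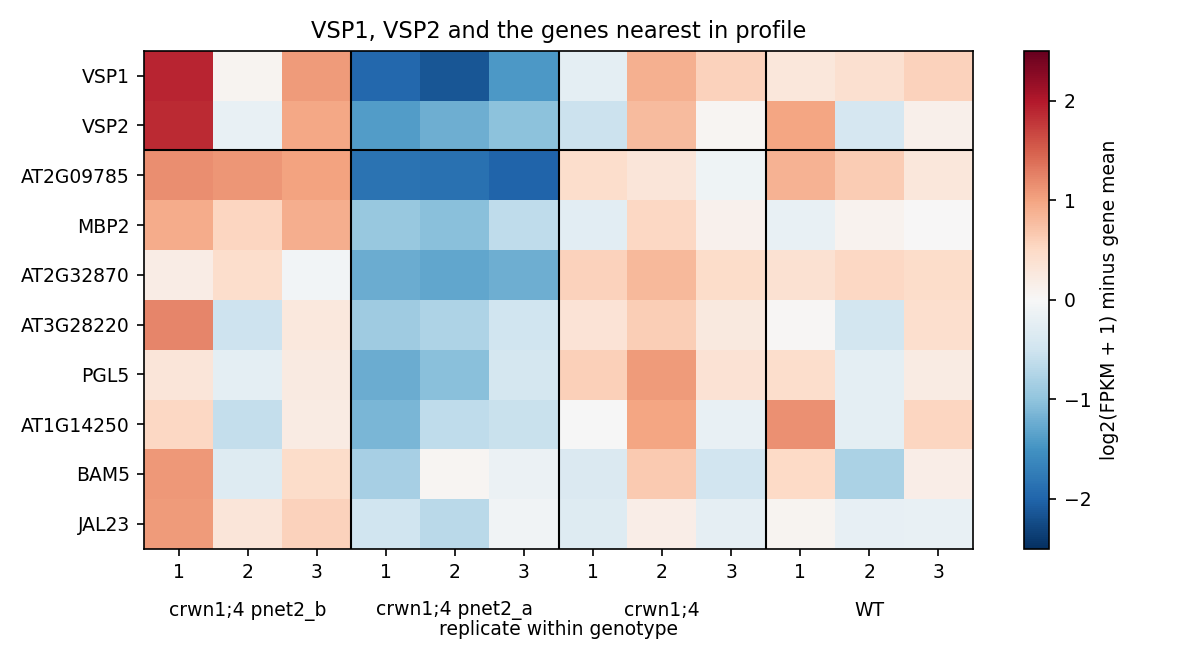
Heat map of log2(FPKM + 1) minus the mean of each gene, for VSP1 and VSP2 (above the line) and the 8 genes nearest to either (below it), in 12 libraries by genotype and replicate. The pnet2_a columns are blue for VSP1, VSP2, AT2G09785, MBP2 and AT2G32870, and the first pnet2_b column is the darkest red for VSP1 and VSP2.

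Markers of cell types and organs were measured in the same libraries. VSP genes are also known from flowers, and flower organ markers were low, with 7 genes summing to 1.24 to 4.16 FPKM in the pnet2_b triple mutant, 0.905 to 2.09 FPKM in the pnet2_a triple mutant, 3.07 to 5.97 FPKM in the double mutant and 4.80 to 9.10 FPKM in WT. SEP1 was the highest of them at 2.96 FPKM. Of 3 seed markers CRU3 and OLEO1 were listed at 0 in all libraries, and of 5 root markers PLT1 was, while SCR reached 10.5 FPKM. The 4 leaf mesophyll markers summed to 18015 to 18769 FPKM in the pnet2_b triple mutant, 21388 to 22695 FPKM in the pnet2_a triple mutant, 25821 to 28497 FPKM in the double mutant and 26665 to 28121 FPKM in WT, and all 4 fell in both triple mutants against the double mutant (under quantile normalization 3 of them did not fall, and the call of RBCS1A in pnet2_a was lost without any 1 of 3 libraries). Over all genes kept 8.63% fell in pnet2_b and 9.2% in pnet2_a. The mesophyll order did not match that of VSP1, which was highest in pnet2_b. The phloem marker SUC2 was at 46.8 to 47.4 FPKM in pnet2_b, 33.5 to 37.7 FPKM in pnet2_a, 52.7 to 57.5 FPKM in the double mutant and 49.7 to 69.0 FPKM in WT, and so shared the low place of the pnet2_a triple mutant with VSP1. The 4 guard and myrosin cell markers summed to 1418 to 1510 FPKM in pnet2_b, 1217 to 1354 FPKM in pnet2_a, 1230 to 1269 FPKM in the double mutant and 1262 to 1553 FPKM in WT, sums carried by the myrosinases TGG1 and TGG2. The guard cell channel gene KAT1 was at 5.08, 5.66 and 5.40 FPKM in pnet2_b, 4.70, 3.34 and 2.90 FPKM in pnet2_a, 8.37, 9.18 and 8.22 FPKM in the double mutant and 7.73, 10.7 and 8.18 FPKM in WT. It fell in both triple mutants against the double mutant, by 0.59 in pnet2_b and 1.06 in pnet2_a on the log2 scale (limma adjusted p = 0.00408 and 6.76e-05), and like VSP1 its libraries were lowest in pnet2_a (pnet2_b against pnet2_a not called, adjusted p = 0.0909). TGG2 rose in the pnet2_b triple mutant by 0.39. FAMA, a factor of guard and myrosin cells, fell by 0.49 in the double mutant against WT, a call lost without any 1 of 4 libraries and in a fit on those 2 genotypes. Unlike KAT1, FAMA, TGG1 and TGG2 were not called in pnet2_a against the double mutant (log2 changes -0.02, -0.01 and 0.08). The part of cell composition in the VSP levels was not tested.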

How the data were processed

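Strand-specific mRNA libraries from leaves were sequenced, per the labels' protocols, and the authors deposited 1 table of FPKM per gene and library. HISAT2 2.0.4 and the TAIR10 genome were used per the submitters' processing notes. The sources used here name no counting program, strand setting or number of reads per library, so no counting interval can be given. FPKM divides by depth, and a gene whose level changes shifts the values of all others.

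Genotype and replicate came from the titles. Of 32833 genes, 19110 reached 1 FPKM in 3 or more of the 12 libraries and were kept. Log2(FPKM + 1) was fitted with limma 3.58.1 in R 4.3.3, with genotype as the only term, 1 fit over 12 libraries (8 residual degrees of freedom), an intensity trend and Benjamini-Hochberg adjustment over all genes kept, called below 0.05. The fit was tested on simulated data. Alternatives were other pseudocounts, filters and scalings, limma without the trend, a fit on 2 genotypes, a replicate block, and each library left out.

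Symbols, coordinates and sequences came from RefSeq's TAIR10.1 by locus. Figures used matplotlib 3.10.9 in Python 3.11.15. The members and the 15 gene lists (122 genes) were chosen with earlier results of these data known. Genes named were the members, up to 4 per list with the smallest adjusted p in any comparison, 3 neighbours on each side, and the 5 nearest profiles of each member. LOX2, JR1, BGLU18, TSA1, MBP1 and PR1, with UBQ6, were added after their values were seen. A level difference between triple mutants and WT was not fitted.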

Additional observations from a re-analysis of the deposited data

Results flagged for a closer look

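In 2 genes named for their likeness to VSP1, every pnet2_b library lay above and every pnet2_a library below every double mutant library. Of all genes kept, 46.4% had every pnet2_b library above and 14.1% every pnet2_a library below the double mutant. The share that met both was not counted, so neither gene is read as unusual. For AT2G09785 the log2 change against the double mutant was 0.89 in the pnet2_b and -2.11 in the pnet2_a triple mutant, a difference of 3.00, and for MBP2 it was 0.67 and -0.999, a difference of 1.67. The difference between triple mutants was not tested as a finding, because both genes were selected for this profile. VSP1 and VSP2 did not meet the same standard, since their second pnet2_b library lay within the range of the double mutant. Groups of 3 libraries are too small to single out one as far from the others.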

How the results depend on the processing

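VSP1, VSP2 and CORI3 kept their directions under every alternative in the comparisons with the triple mutants, apart from CORI3 in the pnet2_a triple mutant with a library left out (-0.24 to 0.05 on the log2 scale). A pseudocount of 5 in place of 1 shrank VSP1 to -1.499 in the pnet2_a triple mutant and to 2.02 between the triple mutants, and turned its change between double mutant and WT to 0.0051. With each library left out, that change ran from -0.25 to 0.32 for VSP1 and from -0.47 to 0.25 for VSP2, and over all alternatives the adjusted p was at least 0.752 for VSP1, 0.652 for VSP2 and 0.401 for CORI3. Genes called between double mutant and WT numbered 574, but 29 in a fit on those 2 genotypes and 305 to 691 with a library left out. Between the triple mutants 550 became 201 without the trend, 908 in a fit on those 2 genotypes and 123 to 640 with a library left out, the lowest without the second pnet2_a library. Quantile normalization, which forces the top ranks to equal values, put CAB3 and RBCS1A at 0 in the 3 comparisons with triple mutants and LHCB1.1 at 0 for pnet2_a and at 0.0416 for pnet2_b against either. NINJA in the pnet2_b triple mutant turned to -0.0189 under median-ratio scaling and -0.0099 under quantile normalization. Of 7, 63, 78 and 19 calls among named and list genes (double mutant against WT, pnet2_a and pnet2_b against double mutant, pnet2_b against pnet2_a), 4, 12, 12 and 13 were lost with at least 1 library left out, and 7, 2, 1 and 0 in a fit on the 2 genotypes compared, which is every named call of the double mutant against WT. The replicate numbers did not pair the libraries (0 of 18 same-numbered pairs correlated over 0.1), and a replicate block left 562 calls between double mutant and WT, 6046 and 9019 in the pnet2_a and pnet2_b triple mutants and 403 between them, with the log2 change of VSP1 there at 2.86. Depth is not given in the sources used here, so no floor could be set for genes listed at 0.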
